A study of Mus musculus with 15 samples.

Results

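Red and green thalamic cells of E18.5 mouse embryos were compared across all genes on 6 of the 15 arrays of the series, 3 of red and 3 of green cells, chosen by their sample titles. The embryos were of the genotype Gbx2CreER-IRES-EGFP/+::R26lsl-tdTomato/+ on a C57BL/6 background. One Gbx2 allele expressed both a tamoxifen-inducible Cre recombinase (CreER) and green fluorescent protein (EGFP), and 1 Rosa26 allele carried a tdTomato reporter that Cre switches on. Pregnant females received 4 mg tamoxifen at E9, and cells of the embryonic thalamus were sorted by fluorescence at E18.5. All groups carried both alleles and had tamoxifen, and no group lacked either. Double-labelled cells of the same stage (3 arrays) shared the model's estimate of the spread. Red and green cells of E14.5 embryos (6 arrays, tamoxifen 4 mg at E9.5) were used for values in other samples. No sorting gates are stated in the labels. Red cells are read here as tdTomato cells without EGFP, and green cells as EGFP cells. The samples of a group are labelled as biological replicates, with nothing on litters or pooling, so p-values measure only the spread between these arrays. RNA of 10 ng was amplified for each array, and the values are log2 signals as deposited, on which a difference of 1 is 2-fold.

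The thalamus relays sensory and motor signals to the cortex through glutamatergic neurons that sit in separate nuclei. Gbx2, a homeodomain transcription factor, is switched on in most thalamic neurons as they are born and is later kept in some nuclei and lost in others. EGFP from its locus therefore reports present activity of the gene, while tdTomato is permanent and marks cells, and their descendants, in which Cre was active shortly after tamoxifen. Red cells without EGFP are thus read as cells of the Gbx2 lineage with less present Gbx2 activity than green cells. The comparison asks how they differ from cells in which the locus is active. Double-labelled cells formed a group of their own, so green cells may lack tdTomato. Present activity of Gbx2 and labelling after tamoxifen would then differ together between red and green cells, and they cannot be told apart here.

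The sort itself set the level of Gbx2. Its signal was 6.44, 7.16 and 5.45 in red replicates 1 to 3 and 8.50, 8.55 and 8.23 in green replicates 1 to 3. Green arrays were all higher, by 4.21-fold, but the red arrays were spread widely (SD 0.86, n = 3), and the difference of -2.07 (SE 0.36) did not pass the threshold (adjusted p = 0.117). Another probe set for the gene differed by -0.80. At E14.5 the signal of Gbx2 was 7.33, 7.28 and 7.30 in red and 7.88, 8.21 and 8.13 in green. The gap there was smaller (-0.77, adjusted p = 0.00338), so red cells of the 2 stages may not differ from green alike in Gbx2. Since EGFP was read from this locus, these differences are a check of the labels and no result.

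Red replicate 1 stood apart from the other arrays. The SD of all its values was 1.34, against 1.44 to 1.5 in the other 5 red and green arrays, and it correlated with the other red arrays at 0.937 to 0.938, against 0.963 for those 2 with each other. Double-labelled replicate 1 was similar, with an SD of 1.31 and correlations of 0.933 to 0.946. Set against the mean of the other red arrays, its values had a slope of 0.88, so that high signals were lower in it and low signals higher. Each main result is therefore also given without red replicate 1, on 8 arrays.

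Among 16635 genes tested, 12 passed an adjusted p of 0.05 (0.0721% of all), of which 8 were higher in red cells (0.0481%) and 4 lower (0.024%). Those higher were Aldh1a1, Slc6a3, Th, Chrnb3, Vgf, Nr4a2, Zdhhc22 and Inpp4b, and those lower were Calb2, Clybl, Grpr and Necab1. All 12 had red and green arrays that did not overlap, and 11 differed at least 2-fold. The bulk of genes differed little: the median difference was -0.01, and the 5th and 95th percentiles were -0.51 and 0.34. At an unadjusted p under 0.05 there were 913 genes (5.49%), close to the share this cut-off gives where no gene differs. Of these, 401 were higher (2.41% of all) and 512 lower (3.08%). Red and green arrays did not overlap for 2535 genes (15.2%), 1018 of them higher (6.12%) and 1517 lower (9.12%). With 3 arrays per group, many genes separate in this way without any difference. The difference also moved with the level of a gene. In the fifth of genes with the lowest signal (3327 genes) the median was 0.09, and in the fifth with the highest signal it was -0.20. Without red replicate 1 these medians were 0.04 and -0.06. In the fifth of highest signal 548 genes were lower without overlap and 85 higher, and the part of this tilt in single results was not tested.

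**Figure D1:**
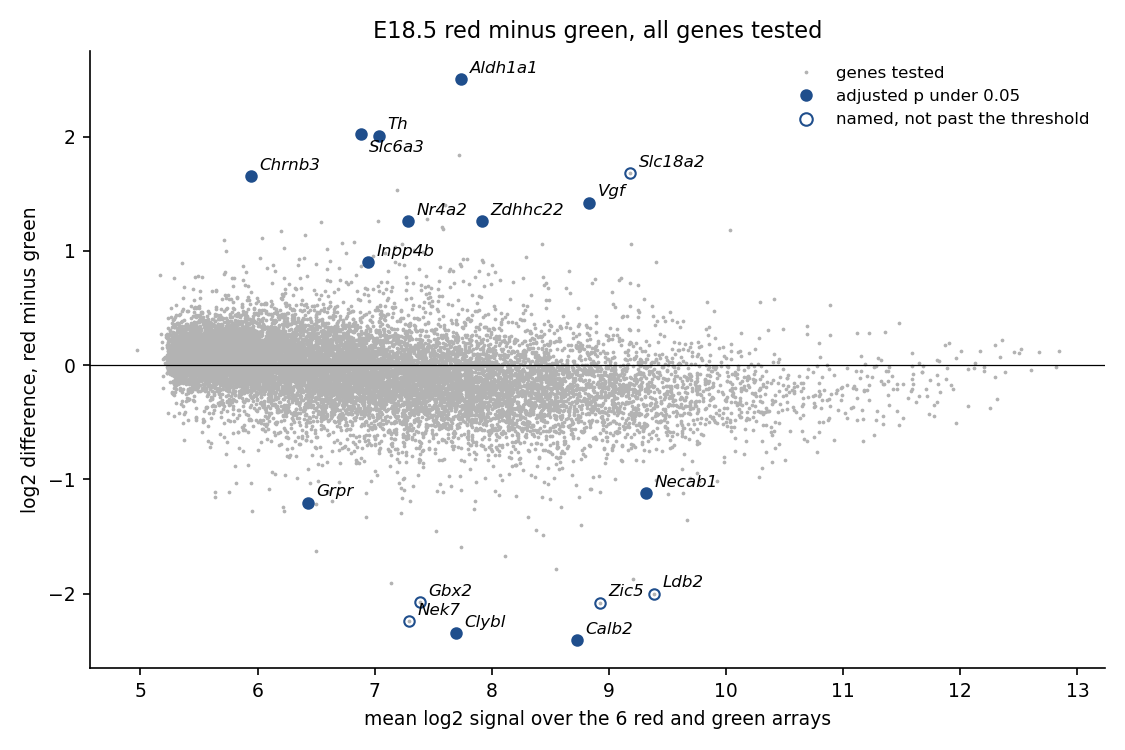
Log2 difference of red minus green E18.5 cells (vertical) against the mean log2 signal of the 6 arrays (horizontal), 1 point per gene tested. Filled points are the 12 genes with an adjusted p under 0.05 and open points are named genes that did not pass; the grey cloud tilts downward to the right.

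Most of these calls rested on single arrays for their side of the threshold. Leaving out 1 of the 9 arrays at a time gave 9 genes without red replicate 1, 6 without red replicate 2 and 9 without red replicate 3. With green replicate 1, 2 or 3 out in turn, 3, 3 and 4 genes passed. The double-labelled arrays, through the spread, gave 26, 6 and 6 when replicates 1, 2 and 3 were left out. Th, Slc6a3 and Calb2 passed in all 9 of these fits, with adjusted p of at most 0.0169, 0.0288 and 0.0333. Without green replicate 1 the adjusted p was 0.0672 for Aldh1a1, 0.111 for Chrnb3, 0.315 for Nr4a2 and 0.267 for Clybl, Grpr, Inpp4b, Necab1 and Zdhhc22, the highest of the 9 fits for each. For Vgf the highest was 0.0819, without green replicate 3. The differences themselves moved little, for Nr4a2 between 1.17 and 1.40 and for Clybl, in size, between 2.19 and 2.61.

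Genes of dopamine handling led the comparison. Th encodes tyrosine hydroxylase, which makes L-DOPA and limits the rate of dopamine synthesis. It had signals of 8.13, 8.16 and 7.85 in red replicates 1 to 3 and of 5.98, 5.93 and 6.19 in green replicates. Slc6a3, the plasma membrane dopamine transporter, had 7.79, 8.18 and 7.71 in red and 5.90, 5.85 and 5.86 in green. For both genes the 3 red arrays lay together about 2 log2 units above the 3 green arrays. Th was 4.03-fold higher (difference 2.01, SE 0.13, adjusted p = 0.000981) and Slc6a3 was 4.08-fold higher (2.03, SE 0.15, adjusted p = 0.00191).

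These are the 250 bases before the gene start of 3 of the genes that were higher in red cells, and of Gbx2, the locus of the sort. They are shown because the genes moved together, or defined the cells, and a shared promoter motif is a first thing to look for. The sequences are from RefSeq, build GRCm38.p6, read 5′ to 3′ on the gene's strand, with matched motifs in capitals. They lie at chr7:142899996-142900245 (Th, minus strand), chr13:73536497-73536746 (Slc6a3, plus), chr2:57124004-57124253 (Nr4a2, minus) and chr1:89931177-89931426 (Gbx2, minus).
Th: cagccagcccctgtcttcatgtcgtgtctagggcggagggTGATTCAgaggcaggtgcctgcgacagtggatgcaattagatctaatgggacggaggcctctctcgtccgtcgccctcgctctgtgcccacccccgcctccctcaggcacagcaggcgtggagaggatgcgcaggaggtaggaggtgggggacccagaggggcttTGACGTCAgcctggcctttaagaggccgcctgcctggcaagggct
Slc6a3: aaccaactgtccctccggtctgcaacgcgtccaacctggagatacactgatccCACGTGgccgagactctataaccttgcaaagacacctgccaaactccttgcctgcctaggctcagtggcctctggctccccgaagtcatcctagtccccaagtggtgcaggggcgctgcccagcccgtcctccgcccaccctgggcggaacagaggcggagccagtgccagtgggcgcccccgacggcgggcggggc
Nr4a2: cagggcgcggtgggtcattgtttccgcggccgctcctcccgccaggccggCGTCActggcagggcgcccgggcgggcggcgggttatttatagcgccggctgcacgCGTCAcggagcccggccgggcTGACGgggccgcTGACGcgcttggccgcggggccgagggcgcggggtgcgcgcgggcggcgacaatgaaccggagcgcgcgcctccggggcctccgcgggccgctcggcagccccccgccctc
Gbx2: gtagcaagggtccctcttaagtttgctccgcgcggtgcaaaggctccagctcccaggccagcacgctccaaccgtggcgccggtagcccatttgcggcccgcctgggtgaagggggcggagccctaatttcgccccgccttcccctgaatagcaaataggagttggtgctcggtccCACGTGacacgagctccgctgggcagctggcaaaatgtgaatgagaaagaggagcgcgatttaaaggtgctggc

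The motifs searched, on both strands, were AAAGGTCA (the site of Nr4a nuclear receptors as monomers), TGACGTCA (CRE, the cyclic AMP response element) and its 5-letter core TGACG. The others were the AP-1 site TGANTCA, the homeodomain site TAATTA, the Otx site GGATTA, the forkhead site TGTTTAC and the E-box CACGTG. A CRE match contains the core on both strands. Th holds a CRE 45 bases before its start, a motif in 1.55% of 32851 such windows, and an AP-1 match 210 bases before it (6.75% of windows). Nr4a2 holds 4 such cores and no whole CRE (core in 17.8% of windows). Slc6a3 and Gbx2 each hold CACGTG (6.02% of windows), 197 and 74 bases before the start. The Nr4a site is in 1.34% of windows and in none of these 4. Of the 12 genes past the threshold, 8 had a window, and beyond those shown Aldh1a1 had an AP-1 match and Grpr a TGACG core. No motif was common to the group, and a match is only a run of letters.

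Other genes of monoamine handling did not pass the threshold, and they differed in direction. Slc18a2, which loads monoamines into vesicles, had 9.67, 10.29 and 10.11 in red and 7.97, 8.51 and 8.54 in green (difference 1.68, SE 0.24, adjusted p = 0.0633). Ddc, which converts L-DOPA to dopamine, had 6.50, 6.84 and 6.36 in red and 5.60, 5.72 and 5.75 in green (0.88, adjusted p = 0.116). In the pathway of the cofactor tetrahydrobiopterin, Gch1, its first enzyme, was 0.30 higher and Pts, the next, differed by -0.51, each without overlap (adjusted p = 0.802 for both). Gchfr, Spr, Qdpr and Pcbd1, further genes of the pathway, overlapped (-0.18, -0.19, -0.16 and 0.04). Slc6a4, the serotonin transporter, was uneven: red replicate 2 stood at 8.15 and the other red arrays at 6.44 and 6.34, against 5.78 to 5.94 in green. Maoa, a mitochondrial amine oxidase, went the other way by -0.74 (adjusted p = 0.802). Of 15 genes of monoamine synthesis, transport and breakdown tested, 2 passed, both higher. Without overlap 6 were higher and 2 lower (6.12% and 9.12% over all genes). The median of the list was 0.04, against -0.01 over all genes. Dbh, Tph1 and Tph2, which make noradrenaline and serotonin, lay under the signal minimum of 5.27 and were not tested.

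Transcription factors of midbrain dopamine neurons were examined beside these enzymes. Nr4a2 (Nurr1), a nuclear receptor needed for the dopaminergic phenotype in midbrain, had 7.93, 8.04 and 7.78 in red and 6.56, 6.47 and 6.94 in green. It was 2.40-fold higher (1.26, SE 0.17, adjusted p = 0.0417), with no overlap of the arrays. Aldh1a1, a retinaldehyde dehydrogenase present in some midbrain dopamine neurons, had 9.42, 8.54 and 9.02 in red and 6.31, 6.35 and 6.81 in green. Its 5.68-fold rise (2.51, SE 0.23, adjusted p = 0.00637) was the largest of all genes tested. Foxa1, a forkhead factor, had 6.94, 7.04 and 6.40 in red and 5.52, 5.74 and 5.58 in green, and did not pass (1.18, adjusted p = 0.0633).

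The remaining genes of the list did not pass and were divided. Pitx3, Lmx1b, Foxa2 and Sox6, factors of midbrain dopamine neurons, differed by 0.12, 0.34, 0.34 and 0.27, and their red and green arrays overlapped. En1 had 7.16, 5.95 and 5.83 in red and 5.34 to 5.53 in green, so that all red arrays lay above green and red replicate 1 stood highest. The same array was the highest of the red arrays for Lmx1a (6.59, against 5.94 and 5.86), Lmx1b (7.40, against 6.61 and 6.55) and En2 (5.82, against 5.40 and 5.34). Double-labelled replicate 1, the other array of low SD, was also highest of its group for these genes. It had 6.25 for Lmx1a (against 5.47 and 5.43), 7.17 for Lmx1b (against 6.32 and 6.58) and 5.73 for En2 (against 5.27 and 5.30). The cause of these high values was not tested. The En1 difference was 0.87, and 0.44 without red replicate 1 (adjusted p = 0.737 and 0.776). Gfra1, a GDNF co-receptor, was 0.84 higher without overlap (adjusted p = 0.223), and Otx2, a homeodomain factor, overlapped (-0.71). Th and Slc6a3 were not higher in red replicate 1 than in both other red arrays. Of 17 midbrain dopamine neuron genes tested, Nr4a2 and Aldh1a1 passed, 7 were higher and 2 lower without overlap (6.12% and 9.12% over all genes), and the median was 0.34, or 0.21 without red replicate 1. Drd2, the dopamine autoreceptor, was lower in every red array (-0.79, adjusted p = 0.38), as was Calb1, encoding calbindin (-1.59, adjusted p = 0.628).

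The 5 genes whose signal followed Th most closely over the 9 E18.5 arrays were Inpp4b (Pearson r = 0.982), Slc6a3 (0.981), Rora (0.976), Nr4a2 (0.971) and Aldh1a1 (0.971). The points share these arrays, in which Th was at 7.85 to 8.16 in red and at 5.93 to 6.36 in the other 6. The r values thus mostly restate the gap between red and the other arrays, and no correlation within a group was computed. Inpp4b, a phosphoinositide phosphatase, had 7.48, 7.35 and 7.35 in red and 6.44, 6.53 and 6.51 in green. The groups were tight and well apart, and the gene was 1.87-fold higher (0.90, SE 0.11, adjusted p = 0.0332). Rora, an orphan nuclear receptor, had 7.69, 7.60 and 7.5 in red and 6.92, 6.84 and 7.07 in green (0.65, adjusted p = 0.128).

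Receptor and secreted-peptide genes made up 2 more of the 8 that were higher. Chrnb3, a subunit of neuronal nicotinic acetylcholine receptors, had 6.84, 6.96 and 6.52 in red and 5.07, 5.23 and 5.05 in green. The difference was 1.65 (SE 0.17, adjusted p = 0.0107, and 0.019 with no filter on low signals). Its green and double-labelled signals, with means of 5.12 and 5.13, lay below the minimum of 5.27, so the gene was tested only through its red arrays and no fold is given. Chrna6, the subunit that often pairs with it, had 6.06, 6.11 and 6.23 in red and 5.20, 5.39 and 5.37 in green (0.81, adjusted p = 0.076). Of 13 nicotinic subunits tested, 1 passed and 3 were higher and 0 lower without overlap (6.12% and 9.12% over all genes). Vgf, the precursor of several secreted peptides, had 9.72, 9.36 and 9.55 in red and 8.15, 8.23 and 7.99 in green. The rise was 2.68-fold (1.42, SE 0.14, adjusted p = 0.00748), with more than 1 log2 unit between the lowest red and the highest green array. Zdhhc22, a member of the palmitoyltransferase family, had 8.51, 8.36 and 8.76 in red and 7.09, 7.38 and 7.39 in green (1.26, SE 0.16, adjusted p = 0.0332).

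**Figure D2:**
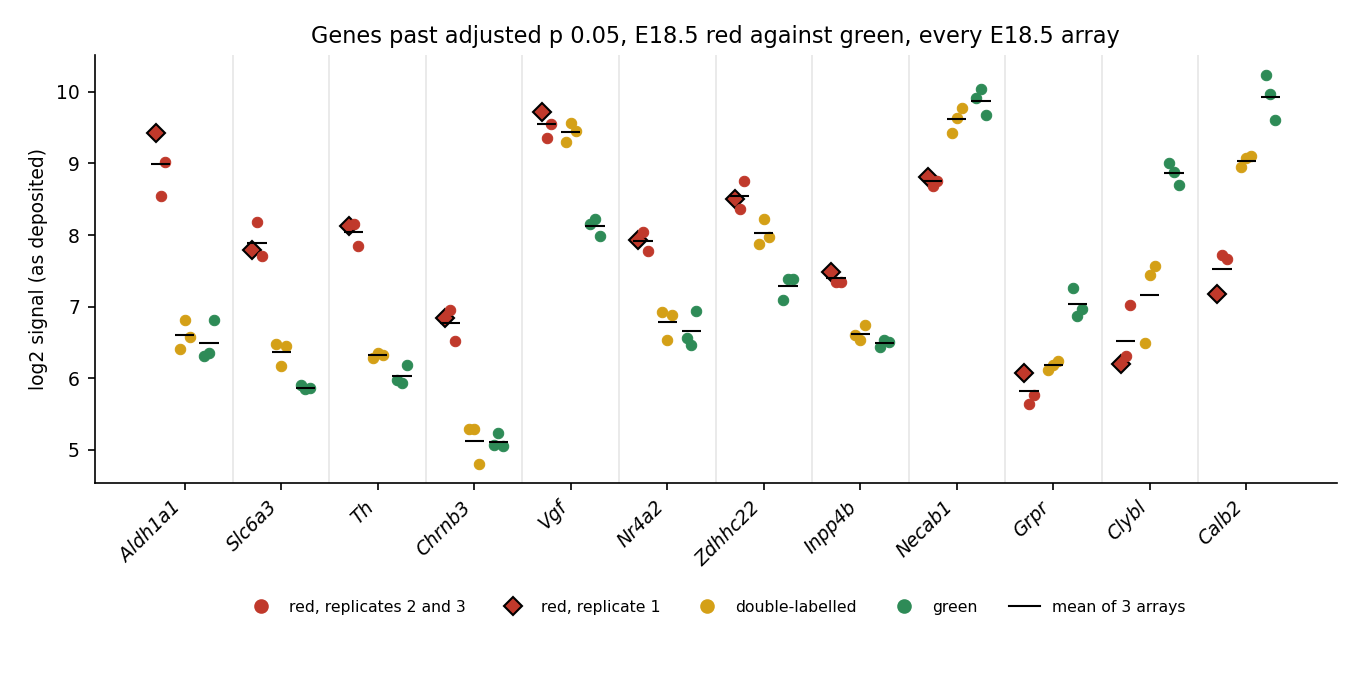
Log2 signal, as deposited, of the 12 genes with an adjusted p under 0.05 in every E18.5 array, by cell population; bars are means of 3 arrays and the outlined diamond is red replicate 1. Red and green points do not overlap for any gene; the double-labelled points of Vgf sit at the red level and those of Chrnb3 at the green level.

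Calcium-binding proteins gave 2 of the 4 genes that were lower in red cells. Calb2 encodes calretinin, a cytosolic calcium buffer used as a marker of neuron subtypes. Its signal was 7.18, 7.72 and 7.67 in red and 10.24, 9.97 and 9.60 in green, a 5.30-fold difference and the largest fall of all genes tested (-2.41, SE 0.20, adjusted p = 0.0025). Necab1, an EF-hand protein of neurons, had 8.81, 8.69 and 8.76 in red and 9.91, 10.04 and 9.68 in green (-1.12, SE 0.14, adjusted p = 0.0332). Calb1 had 5.88, 7.64 and 7.32 in red and 8.52, 8.88 and 8.21 in green, with red replicate 1 far below the others. Of 17 calcium-binding proteins tested, these 2 passed. Without overlap 4 were lower and 1 higher (9.12% and 6.12% over all genes), and the median was -0.12. Hpca (hippocalcin) was the one higher, at 0.54 (adjusted p = 0.343).

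Neuropeptide signalling differed in both directions. Grpr, the receptor for gastrin-releasing peptide, had 6.08, 5.64 and 5.77 in red and 7.26, 6.87 and 6.97 in green, 2.31-fold lower (-1.20, SE 0.15, adjusted p = 0.034). Its ligand gene Grp had 6.64, 6.93 and 6.52 in red and 7.59, 7.68 and 7.90 in green (-1.03, adjusted p = 0.114). Nmbr, the neuromedin B receptor of the same family, had 5.13, 5.46 and 5.35 in red and 6.38, 7.0 and 6.40 in green (-1.28, adjusted p = 0.141). These 3 genes were lower in every red array, and Grpr alone passed. Nmb, the ligand of Nmbr, overlapped (0.27). Cck, the precursor of cholecystokinin, had 7.93, 9.40 and 8.59 in red and 6.39, 7.04 and 6.99 in green (1.84, SE 0.36, adjusted p = 0.173). Crhr1, a receptor for corticotropin-releasing hormone, was 0.73 higher (adjusted p = 0.238). Of 28 peptide precursors 1 passed (Vgf), with 5 higher and 5 lower without overlap. Of 27 peptide receptors 1 passed, with 2 higher and 8 lower without overlap. Over all genes 6.12% were higher and 9.12% lower in this way.

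Clybl, a mitochondrial citramalyl-CoA lyase, was the remaining gene past the threshold. It had 6.20, 6.31 and 7.03 in red and 9.01, 8.88 and 8.70 in green (-2.35, SE 0.30, adjusted p = 0.0368), so that even the highest red array lay well below the green ones. Nek7, a serine/threonine kinase, had 5.46, 6.56 and 6.49 in red and 8.30, 8.55 and 8.40 in green (-2.24, adjusted p = 0.0633). Car8, a carbonic anhydrase-related protein, differed by -1.90 and Mylk, the myosin light chain kinase, by -1.63 (adjusted p = 0.196 and 0.13). Dusp6, a phosphatase that acts on ERK, had 8.10, 9.66 and 9.20 in red and 10.17, 10.44 and 10.44 in green (-1.36, adjusted p = 0.573), and its other probe set differed by -1.45. Plagl1, a zinc finger factor, differed by -1.45, and by -0.40 in another probe set. Higher in all red arrays without passing were Cpne8, a copine (1.54), Pde7b, a cyclic AMP phosphodiesterase (1.40), Jam2, an adhesion molecule of cell junctions (1.26), and Epb41l4b, a FERM-domain protein (1.21).

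No thalamic transcription factor passed the threshold. Of 22 tested, 8 were lower and 4 higher without overlap of the arrays, against 9.12% and 6.12% of all genes, and the 8 include Gbx2, which the sort set. Several of the 8, such as Tcf7l2, Prox1 and Lhx9, had high signals. In the fifth of genes with the highest signal, 548 of 3327 were lower and 85 higher in this way. The median was 0.01, against -0.01 over all genes. Lhx9, a LIM-homeodomain factor of thalamic neurons, had 9.08, 9.05 and 9.47 in red and 10.30, 10.16 and 10.10 in green (-0.99, SE 0.14, adjusted p = 0.0633). Lhx2, its close relative, had 8.28, 7.15 and 7.59 in red and 8.62, 8.75 and 8.52 in green (-0.95, adjusted p = 0.38). Prox1, a homeodomain factor, differed by -1.02 (adjusted p = 0.315) and Rorb, an orphan nuclear receptor, by -0.68 (adjusted p = 0.223). Tcf7l2, an effector of Wnt signalling and a general factor of thalamic neurons, was at 11.30 to 11.73 in red and 11.94 to 12.05 in green (-0.45, adjusted p = 0.649). Lef1, another effector of Wnt signalling, was at 8.92 to 9.29 in red and 8.02 to 8.41 in green (0.82, adjusted p = 0.13). Tcf7l2, Lhx9 and Lhx2 were thus well above the minimum of 5.27 in all 6 arrays, which does not by itself show the identity of the cells.

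None of the 4 Zic zinc finger factors tested passed, and 3 were lower without overlap (9.12% over all genes). Zic5 had 6.92, 8.11 and 8.63 in red and 9.86, 10.06 and 9.98 in green (-2.08, SE 0.40, adjusted p = 0.164), and -1.80 in another probe set. Zic2 and Zic4 differed by -1.06 and -0.75 (adjusted p = 0.207 and 0.416), with no overlap. Zic1 overlapped, at 9.97 to 10.33 in red and 10.10 to 10.43 in green (-0.11). Among LIM-homeodomain factors and their cofactors, Ldb2, which bridges LIM factors, had 7.89, 9.10 and 8.17 in red and 10.32, 10.62 and 10.21 in green (-2.0, SE 0.30, adjusted p = 0.076). Ldb1, its paralogue, overlapped (0.18). Lmo1, a LIM-only protein, was 1.07 higher (adjusted p = 0.677). Of 16 genes in that list none passed, with 3 higher and 3 lower without overlap (6.12% and 9.12% over all genes). Ebf1, a helix-loop-helix factor, was at 8.08 to 8.33 in red and 6.58 to 7.29 in green (1.19, adjusted p = 0.076).

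Guidance and adhesion genes were not past the threshold in any family. The counts without overlap below stand beside 6.12% higher and 9.12% lower over all genes, shares that moved with the signal level of a gene. In the Slit, netrin and FLRT group (20 tested, 2 higher and 3 lower without overlap), Robo1, a Slit receptor, differed by -1.13 (adjusted p = 0.543). Flrt1, a cell-surface ligand of Unc5 and latrophilins, had 7.03, 6.81 and 6.84 in red and 7.95, 7.79 and 7.83 in green (-0.96, SE 0.15, adjusted p = 0.076). Ntn1, the secreted cue netrin-1, was 0.63 higher, and Draxin, another secreted cue, differed by -0.63 (adjusted p = 0.296 and 0.306). Of 28 semaphorins, plexins and neuropilins, 5 were lower and 1 higher without overlap, among them the receptors Plxnc1 (-1.11), Plxna2 (-1.02) and Nrp2 (-0.77) and the secreted ligand Sema3a (-0.52). Ephrins and their receptors were mixed, with Epha8 at 0.64, Efna3 at 0.43 and Efnb2 at -0.86, and 2 higher and 3 lower of 20. Pcdh18, a protocadherin, had 6.76, 7.83 and 7.24 in red and 8.92, 9.01 and 8.90 in green (-1.67, SE 0.46, adjusted p = 0.485). Of 27 cadherins and protocadherins 6 were lower and 1 higher without overlap.

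Genes of excitability and synapses were likewise divided. Of 47 potassium channel genes 11 were higher and 6 lower without overlap, against 6.12% and 9.12% of all genes, and none passed. Kcnk9, a leak channel, was 0.83 higher, Kcnd3, an A-type channel, 0.67 higher, and Kcna3, a delayed rectifier, differed by -0.64 (adjusted p = 0.404, 0.425 and 0.271). Cacng3, an auxiliary subunit of AMPA receptors, had 7.78, 7.77 and 7.40 in red and 9.12, 9.27 and 8.91 in green (-1.45, SE 0.22, adjusted p = 0.076). Syn2, a synaptic vesicle phosphoprotein, had 7.57, 7.51 and 7.35 in red and 8.69, 8.91 and 8.13 in green (-1.10, adjusted p = 0.29). Htr1b, a presynaptic serotonin receptor of thalamic axons, had 7.84, 8.57 and 8.35 in red and 7.25, 7.45 and 7.28 in green (0.93, adjusted p = 0.188). Htr1b and Chrna6 were thus higher, and Drd2 and Cacng3 lower, in every red array, each short of the threshold. Sodium, calcium and HCN channels (29 tested), serotonin and dopamine receptors (18) and vesicle genes (34) had 2, 3 and 4 members higher and 3, 2 and 5 lower without overlap, and none of them passed. Named members were Cacna2d3 (0.58) and Hcn4 (-0.77, overlapping) of the channels, the receptor Drd5 (0.54), and Sv2c (0.52) and Rab3c (-0.67) of vesicles. Another probe set of Rab3c differed by 0.41, in the opposite direction.

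Both populations were neuronal and glutamatergic in signal. Slc17a6, the vesicular glutamate transporter of thalamic neurons, was at 9.38, 10.49 and 10.45 in red and 10.44, 10.69 and 10.42 in green, with the low value in red replicate 1. Tubb3, Dcx and Snap25, general neuronal genes, overlapped between the groups (-0.17, -0.39 and -0.02). Of 21 glutamatergic genes and 20 GABAergic and prethalamic genes, none passed. Sp9, a zinc finger factor of GABAergic lineages, had 7.71, 7.45 and 7.91 in red and 6.73, 6.88 and 6.82 in green (0.88, SE 0.17, adjusted p = 0.164). Slc32a1, the vesicular GABA transporter, was at 6.35 to 6.43 in red and 5.62 to 6.07 in green (0.53, adjusted p = 0.427). Gad2 and Gad1, the GABA-synthesising enzymes, overlapped (0.47 and 0.44). Grik3, a kainate receptor subunit, was 0.72 higher and Grin2d, an NMDA receptor subunit, 0.52 higher (adjusted p = 0.223 and 0.571).

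Activity-regulated genes included 2 of those that passed, Vgf and Nr4a2. Of 24 in the list, 7 were higher and 1 lower without overlap (6.12% and 9.12% over all genes). The median was 0.15, falling to 0.06 without red replicate 1. The 7 were Vgf, Nr4a2, Fos (0.33), Jun (0.51), Arc (0.27), Nr4a1 (0.51) and Btg2 (0.54), of which the last 5 did not pass. Most of the list overlapped, among them Fosb (0.04), Junb (0.13), Egr1 (0.55) and Ier2 (-0.08). Heat shock and stress genes had a median of -0.04 over 17 tested, with 0 past the threshold and 2 at an unadjusted p under 0.05, Ddit4 (0.72) and Hspb1 (0.59). A part of sorting or handling in the activity genes was not tested.

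Among lists of markers of other cell types and regions, beyond the midbrain genes above, habenula alone had members past the threshold, Chrnb3 and Nr4a2. Of 12 habenula genes tested 3 were higher and 2 lower without overlap (6.12% and 9.12% over all genes). The lower ones were Gng8, a G protein subunit (-1.09), and Kcnip1, a potassium channel-interacting protein (-0.65), with adjusted p of 0.732 and 0.271. Its defining factor Pou4f1 (Brn3a) overlapped, at 5.66 to 6.29 in red and 5.73 to 6.07 in green, as did Gpr151, a habenular receptor (5.24 to 5.59 and 5.18 to 5.36). The mean signal per array of 15 astrocyte and radial glia genes was 6.52 to 6.81 in red and 6.29 to 6.54 in green, with Gfap near 5.7 in both (5.62 to 5.83 and 5.65 to 5.74). Within that list Tnc, an extracellular matrix protein, was 0.37 higher and Fabp7, a fatty acid-binding protein of radial glia, overlapped (1.06). Sparcl1, a secreted astrocyte protein, was at 8.32 in red replicate 1 and at 6.77 and 7.0 in the other red arrays. For 11 oligodendrocyte-lineage genes the mean signals were 5.74 to 6.12 in red and 5.70 to 5.82 in green, and for 11 microglia genes 5.73 to 5.99 and 5.67 to 5.72. Of these lists 2, 3 and 2 members were higher and 1, 0 and 0 lower without overlap, and Olig1, a factor of oligodendrocyte precursors, was 0.50 higher (adjusted p = 0.752). Endothelial cells and pericytes (14 genes, 5.52 to 5.81 and 5.64 to 5.77) and meninges with choroid plexus (11 genes, 5.70 to 5.93 and 5.75 to 5.79) overlapped between the groups, while Rgs5, a pericyte gene, differed by -0.94 (adjusted p = 0.786). Only 2 erythroid genes could be tested (5.62 to 5.69 and 5.60 to 5.71).

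Markers of neighbouring regions were examined in the same way. All 9 hindbrain and cerebellum genes tested had a difference above 0, with a median of 0.12 (0.06 without red replicate 1) and mean signals of 5.54 to 5.98 in red and 5.49 to 5.50 in green. Of 16 genes of hypothalamus, pretectum and zona limitans 15 were above 0, with a median of 0.17 (0.09 without red replicate 1) and mean signals of 5.80 to 6.08 and 5.70 to 5.77. Over all 16635 genes tested, 8026 had a difference above 0. Of all genes, the 3327 of lowest signal and the 3327 next above had medians of 0.09 and 0.07. The 7 cortical genes had mean signals of 6.11 to 6.38 and 6.21 to 6.34, with Bcl11b, a zinc finger factor, at -0.53 (adjusted p = 0.753). Neural progenitor genes (17 tested) had a median of 0.09, with Sox2 at 10.56 to 10.80 in red and 9.97 to 10.37 in green (0.58, adjusted p = 0.533) and Hes1, a Notch target, 0.76 higher (adjusted p = 0.573). The 19 cell cycle genes had a median of 0.00, with Mcm4, a replication licensing factor, at -0.56 (adjusted p = 0.571). Of 4 sex-linked genes none passed, and Uty was at -0.39 (adjusted p = 0.802). The part of other cells in the results was not tested. In bulk RNA, fewer cells with a transcript and less of it per cell cannot be told apart.

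**Figure D3:**
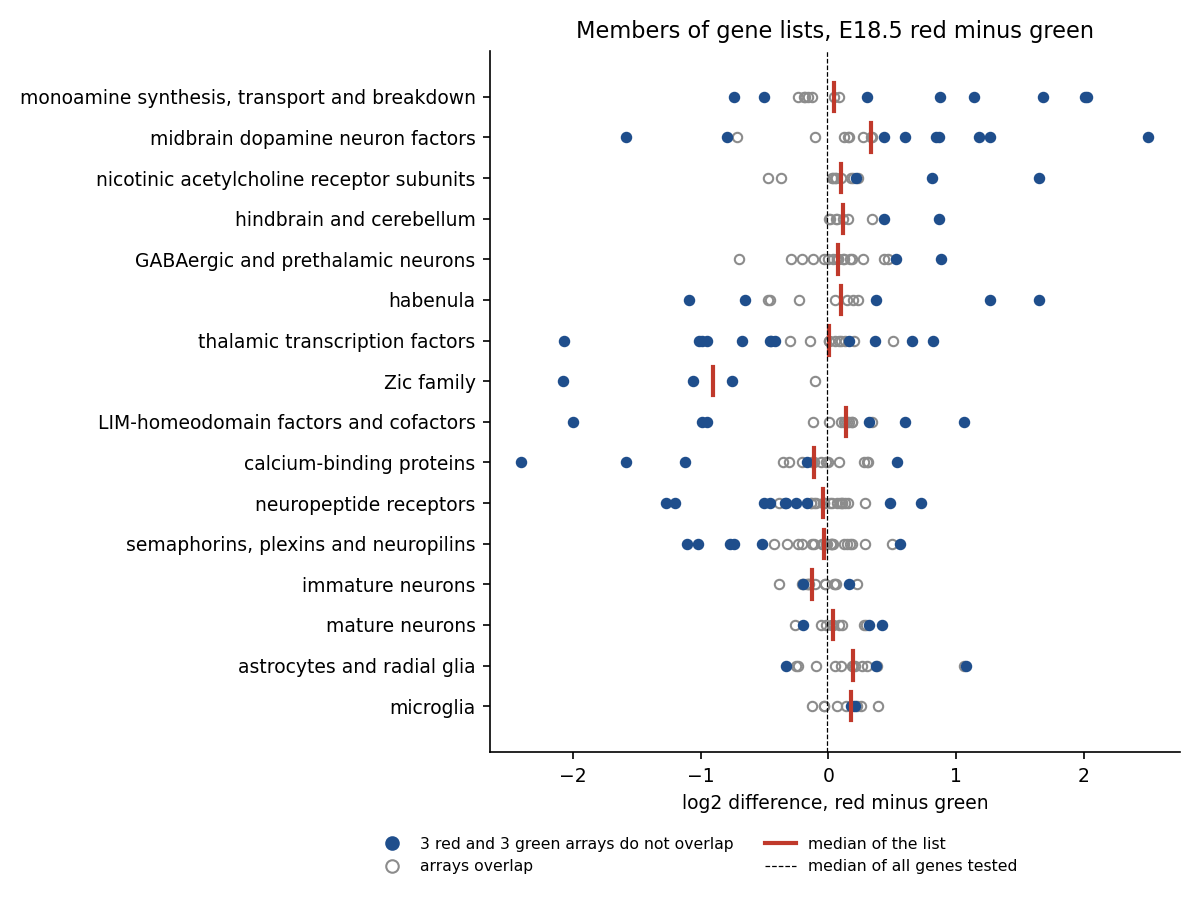
Log2 difference of red minus green for the members of 16 gene lists, 1 point per gene tested; filled points are genes whose 3 red and 3 green arrays do not overlap, and the red bar is the list's median. The Zic family sits to the left with a median of -0.91, while midbrain dopamine neuron factors reach 2.51 with a median of 0.34.

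Without red replicate 1, 9 genes passed (0.0541% of all), 6 higher (0.0361%) and 3 lower (0.018%), and 676 had an unadjusted p under 0.05 (4.06%). Of the 9, 7 were among the 12: Th, Slc6a3, Aldh1a1, Vgf, Chrnb3, Calb2 and Grpr, with adjusted p of 0.00663, 0.00663, 0.012, 0.027, 0.0467, 0.00663 and 0.0297. Clybl, Inpp4b, Necab1, Nr4a2 and Zdhhc22 no longer passed, at adjusted p of 0.109, 0.0727, 0.0684, 0.11 and 0.0691. Their differences had hardly moved: the largest shift of any of the 12 was 0.21 (Aldh1a1, to 2.29). The median SE was 0.18 on 8 arrays and 0.17 on 9, with 5 and 6 residual degrees of freedom. The fall from 12 to 9 thus left the sizes of the differences nearly as they were.

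Among genes with large differences, whether past the threshold or not, red replicate 1 often lay at the edge. It was the lowest of the red arrays in 11 of the 14 genes with the largest negative differences, and in 11 of those 14 the difference was smaller without it. For the 14 largest positive differences it was highest in 4 and lowest in 4, and the difference was smaller without it in 8. Zic5 moved from -2.08 to -1.59, Nek7 from -2.24 to -1.89, Car8 from -1.90 to -1.53 and Dusp6 from -1.36 to -0.92. In the other direction Cck moved from 1.84 to 2.19 and Cpne8 from 1.54 to 1.89. The median absolute difference over all genes went from 0.15 to 0.11.

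Tle3 and Mir218-1 passed only without red replicate 1. Tle3, a Groucho corepressor, had 7.18, 6.43 and 6.45 in red and 7.80, 7.77 and 7.72 in green (-1.32 without red replicate 1, adjusted p = 0.00976, and -1.08 with it, adjusted p = 0.13). Mir218-1 (chosen after its values were seen, since small RNA symbols were not among those named by rule) had 5.07, 6.27 and 6.07 in red and 4.95, 4.91 and 4.87 in green. Red replicate 1 lay near the green level, and the difference was 1.26 without it (adjusted p = 0.0432) and 0.89 with it (adjusted p = 0.596). Its green and double-labelled means of 4.91 and 5.13 lay below the minimum of 5.27, so it was tested only through its red arrays. At E14.5 it was lower in red cells (-0.78, adjusted p = 0.0165), and the change between stages was 1.67 (adjusted p = 0.0361). The array measures RNA from the locus and not the mature microRNA. Its host gene Slit2, a secreted guidance cue, overlapped between the groups (-0.26) and was lower in red cells at E14.5 (-2.46, adjusted p = 0.000161). The mature sequences from this locus are given from RefSeq, with the seed (bases 2 to 8) in capitals, at chr5:48223966-48223986 and chr5:48224005-48224026 on the plus strand of GRCm38.p6.
mmu-miR-218-5p: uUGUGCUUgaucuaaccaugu
mmu-miR-218-1-3p: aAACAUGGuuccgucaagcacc

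**Figure D4:**
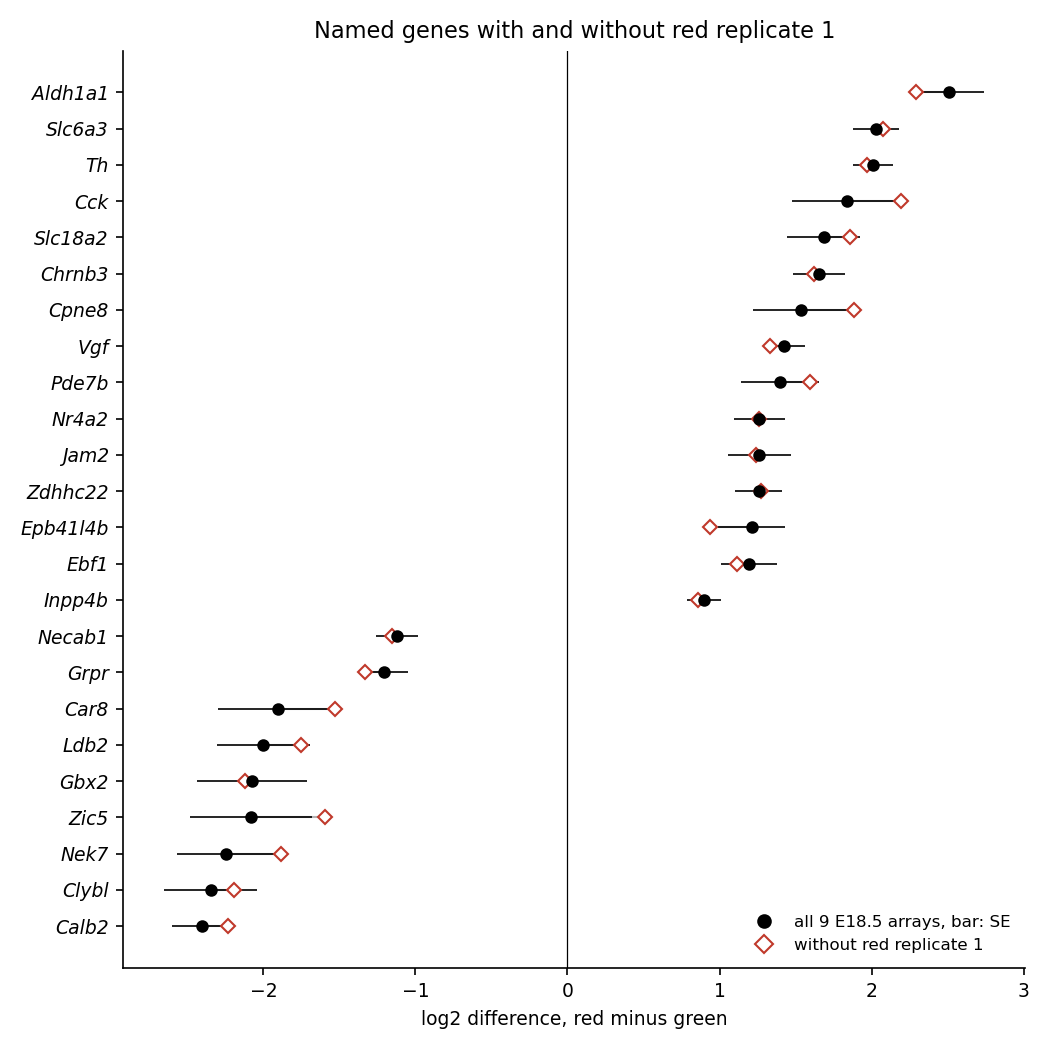
Log2 difference of red minus green for genes past the threshold and others with large differences, from all 9 E18.5 arrays (black points with SE) and without red replicate 1 (open diamonds). The diamonds of Th, Slc6a3 and Nr4a2 lie on their points, while Zic5 moves from -2.08 to -1.59 and Cck from 1.84 to 2.19.

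Double-labelled cells, which carry both markers, were measured for the same genes. These arrays shared the spread estimate of the comparison, so they are set beside it as levels only. For all 12 genes past the threshold the double-labelled mean lay between the red and green means, nearer red in 4 of 12. The 12 were picked for a wide gap between red and green, so a mean in between was likely in advance. No share over all genes was counted, and nothing is concluded from the position in between. Th was at 6.29, 6.36 and 6.33 and Slc6a3 at 6.48, 6.17 and 6.45, a little above the green arrays. Aldh1a1 (6.41 to 6.82), Chrnb3 (4.81 to 5.29) and Nr4a2 (6.53 to 6.93) overlapped the green range. Vgf (9.30, 9.57 and 9.45) overlapped the red range instead. Calb2 lay in between at 8.95, 9.07 and 9.10, apart from both groups. Clybl was at 6.49, 7.44 and 7.57 and Grpr at 6.12, 6.18 and 6.24, both nearer red. Gbx2 itself was at 8.0, 8.50 and 8.48, close to the green level.

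The same comparison in E14.5 cells gave values in arrays that E18.5 did not use. There 1339 genes passed (8.05%), 693 higher (4.17%) and 646 lower (3.88%) in red cells. An unadjusted p under 0.05 was found for 3827 (23%). Arrays of a group correlated at 0.982 to 0.992 at E14.5 and at 0.933 to 0.985 at E18.5. The SE at E14.5 and E18.5 was 0.22 and 0.32 for Nek7 and 0.18 and 0.40 for Zic5. Counts of genes passed at the 2 stages thus rest on unlike spreads. Of the 12 genes, 3 passed at E14.5 in the same direction: Vgf (1.19, adjusted p = 0.00206), Zdhhc22 (1.18, adjusted p = 0.00471) and Clybl (-2.61, adjusted p = 0.00167). Calb2 (0.69, adjusted p = 0.0283) and Necab1 (1.12, adjusted p = 0.00523) passed in the opposite direction, higher in red cells. The dopamine genes and Chrnb3 did not pass at E14.5: Th was -0.02, Slc6a3 -0.12, Aldh1a1 0.06 and Chrnb3 -0.04 (adjusted p = 0.909, 0.621, 0.804 and 0.791). Nr4a2 differed by 0.33 (adjusted p = 0.178). Signals at E14.5 were low in red and green cells alike, with means of 5.09 and 5.11 for Th and 5.02 and 5.14 for Slc6a3. For Aldh1a1 they were 5.45 and 5.40, for Chrnb3 4.52 and 4.56, for Inpp4b 4.92 and 4.80, and for Grpr 4.75 and 4.69. At such levels a difference near 0 does not show equal expression. Slc18a2, short of the threshold at E18.5, passed at E14.5 (1.92, adjusted p = 0.0096). The same was true of Nek7 (-1.95, adjusted p = 0.00217), Zic5 (-1.72, adjusted p = 0.00175), Lhx9 (-0.89, adjusted p = 0.00262) and Pde7b (2.19, adjusted p = 0.00362). Others passed at E14.5 in the direction opposite to their E18.5 difference: Jam2 (-0.88, adjusted p = 0.0043), Foxa1 (-0.73, adjusted p = 0.035), Cacng3 (0.95, adjusted p = 0.00761), Drd2 (0.95, adjusted p = 0.00512) and Prox1 (0.86, adjusted p = 0.0423). So did Syn2 (0.35, adjusted p = 0.0364), Dcx (0.59, adjusted p = 0.00639), the glutamate receptor Grm8 (1.53, adjusted p = 0.0106) and the cadherin Cdh4 (0.95, adjusted p = 0.00337).

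The change of the red-green difference between stages was tested as an interaction over all 15 arrays, in which 160 genes passed (0.962%). Of the 12 genes, 8 passed that test: Th, Slc6a3, Aldh1a1, Chrnb3, Inpp4b, Calb2, Necab1 and Grpr. The 12 were picked for their E18.5 difference, which is a part of this test, so passing was favoured in advance. The 8 of 12 can therefore not be weighed against the 0.962% of all genes. For Th the difference was 2.03 larger at E18.5 (adjusted p = 4.01e-05), and for Calb2 it moved by -3.09 (adjusted p = 0.000103). Vgf, Zdhhc22 and Clybl moved by 0.24, 0.07 and 0.27 between stages (adjusted p = 0.921, 0.996 and 0.982). Nr4a2 moved by 0.94 (adjusted p = 0.0707). The stages also differ in the day of tamoxifen, and the mean of all values was 6.17 to 6.19 on E18.5 arrays and 5.63 to 5.65 on E14.5 arrays, so stage, labelling day and normalization cannot be told apart.

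**Figure D5:**
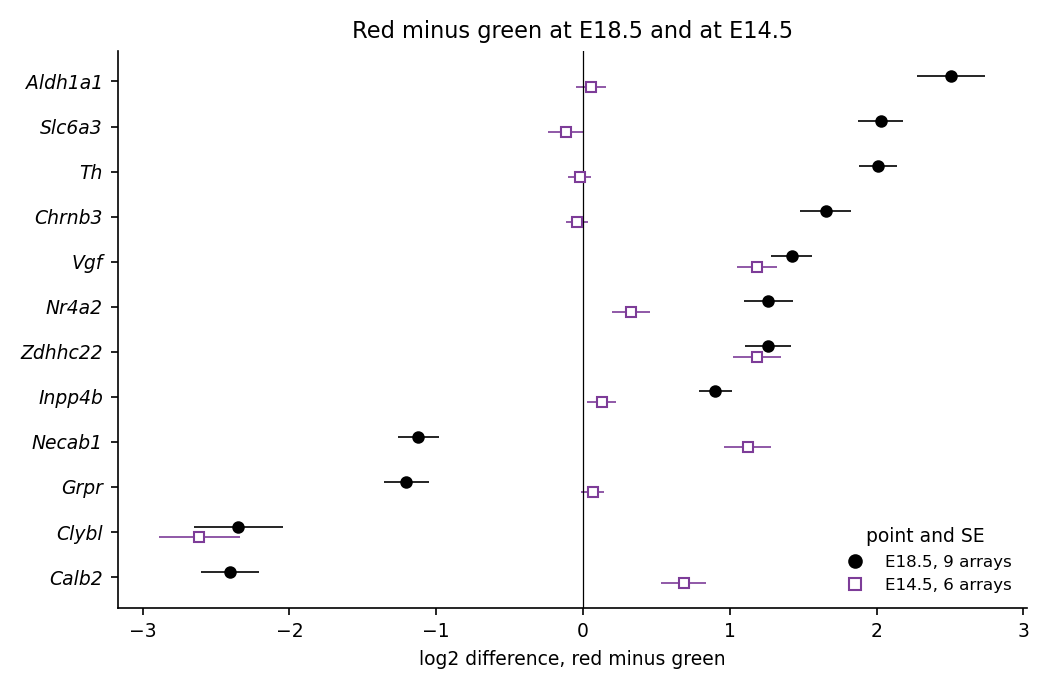
Log2 difference of red minus green with SE for the 12 genes past the threshold at E18.5 (filled, 9 arrays) and the same genes at E14.5 (open squares, 6 arrays). Th, Slc6a3, Aldh1a1 and Chrnb3 lie near 0 at E14.5, Vgf, Zdhhc22 and Clybl lie on the same side of 0 at both stages, and Calb2 and Necab1 change sign.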

How the data were processed

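The deposited values were log2 signals per transcript cluster, which the authors made in Affymetrix Expression Console, per the submitters' processing notes; its version and algorithm are not given in the sources used here. They were used without further transformation. Of 33794 clusters, 23521 named 1 gene by the platform annotation. These gave 22180 genes, and for the 1082 with several clusters the one with the highest mean over the 9 E18.5 arrays was kept. Genes in the bottom 25% by that mean (below 5.27) were dropped, which left 16635 tested.

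A group-means model was fitted to the 9 E18.5 arrays in R 4.3.3 with limma 3.58.1 (lmFit and eBayes, two-sided), with the contrast red minus green. All p-values called adjusted are Benjamini-Hochberg over all genes tested, with a threshold of 0.05, and SEs come from this model. The same model was run without red replicate 1, on the 6 E14.5 arrays, and on all 15 arrays for the stage interaction. The fits were tested on simulated data. The number of arrays limits the precision; no depth applies. Figures were drawn with matplotlib 3.10.9 in Python 3.11.15.

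The naming rule covers Gbx2, every gene past the threshold, and the 14 largest rises and 14 largest falls among genes whose arrays did not overlap and whose unadjusted p was under 0.01. It also covers up to 6 genes per direction that passed without red replicate 1 alone, and up to 3 members by smallest unadjusted p under 0.05 in each of 37 gene lists. Predicted genes, clones, small RNAs, receptor and immunoglobulin families and pseudogenes were left out. Further genes (the midbrain factors, other list members, Mir218-1, Slit2, cell type markers) were chosen after their values were seen. The genes and lists were chosen with earlier results of these data known. One gene that the rule names is not reported here. Lists are described by counts and medians, without a test. Alternatives were single arrays left out, other normalizations, filters, array sets and a replicate block.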

Additional observations from a re-analysis of the deposited data

Results flagged for a closer look

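The difference between red and green cells changed from E14.5 to E18.5, by the interaction test over all 15 arrays, in 20 of the genes that the naming rule gives for E18.5. The rule picks genes mostly by their E18.5 difference, which is a part of this test. Passing was thus favoured in advance, and nothing is concluded from the count of 20. Of the genes past the threshold at E18.5, the log2 difference was larger at E18.5 by 2.03 for Th, 2.15 for Slc6a3, 2.45 for Aldh1a1, 1.70 for Chrnb3 and 0.77 for Inpp4b. It moved by -3.09 for Calb2, -2.24 for Necab1 and -1.27 for Grpr, the first 2 of which were higher in red cells at E14.5.

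Of named genes short of the threshold at E18.5, the difference moved upward for Jam2 (2.15), Foxa1 (1.91), Ccnd2 (1.28), a cell cycle cyclin, and Chrna6 (0.76). It moved downward for Cacng3 (-2.40), Grm8 (-2.0), a metabotropic glutamate receptor, Ldb2 (-2.0), Drd2 (-1.74), Syn2 (-1.45), Cdh4 (-1.43), a classical cadherin, Nmbr (-1.39) and Flrt1 (-1.17). Ccnd2 was lower in red cells at both stages, by -1.77 at E14.5 and -0.49 at E18.5. Adjusted p of these 20 lay between 4.01e-05 (Th) and 0.0333 (Syn2), and after quantile normalization of the 15 arrays all 20 still passed, with a highest adjusted p of 0.0225. Of genes chosen after their values were seen, Slit2 (2.20), Prox1 (-1.88), Tnr (-1.49) and Mir218-1 (1.67) passed the same test. At E14.5 the red and green means of Th, Slc6a3, Chrnb3, Inpp4b, Grpr, Nmbr and Chrna6 were all below 5.27, the minimum set on E18.5 arrays. Levels of the stages carry the shift of the array means given with the results.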

How the results depend on the processing

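The count of 12 genes depended on which arrays set the spread. Leaving out 1 array at a time gave 3 (without green replicate 1 or 2) to 26 (without double-labelled replicate 1). Without both narrow-range arrays it was 45, with the 6 compared arrays alone 6, with all 15 arrays 102 and with array weights 112. Other normalizations, filters, the prior and the mean of a gene's clusters gave 9 to 14. Without red replicate 1, the count of 9 became 21 after quantile normalization and 45 without double-labelled replicate 1 too. At E14.5, leaving out 1 array gave 542 to 2568 genes. Th, Slc6a3 and Calb2 passed in all 9 fits that left out 1 array and in all 11 other settings. Aldh1a1 passed in 7 of the 9, Vgf in 6, Chrnb3 in 5, Clybl and Grpr in 2, and Inpp4b, Necab1, Nr4a2 and Zdhhc22 in 1, that without double-labelled replicate 1. No gene named by the rule changed direction in these settings. Some overlapping genes chosen after their values were seen changed sign without red replicate 1. Among them were Tubb3 (to 0.05), Snap25 (0.09), Pou4f1 (-0.14), Nmb (-0.10) and Spr (0.01). The cause of these changes was not tested.

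Same-numbered red and green arrays deviated together at r = 0.47, 0.40 and 0.07. Red and green arrays of different numbers gave -0.41, -0.41, -0.29, -0.03, -0.02 and, for red replicate 3 with green replicate 2, 0.21. The labels state no pairs, so the main fit did not take the numbers as pairs. Same-numbered red and double-labelled arrays gave 0.67, 0.50 and 0.49, and green and double-labelled arrays 0.37, 0.41 and 0.05; the labels do not say whether same-numbered arrays share a source. With the replicate block 77 genes passed (34 higher, 43 lower), including all 12, and without red replicate 1 the block gave 20.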

Other observations

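Without both narrow-range arrays, 45 genes passed, 19 higher and 26 lower in red cells, 11 of them among the 12 above. The genes below are taken from these 45 after their values were seen. Those added on the higher side included Slc18a2 (1.86, adjusted p = 0.0113), Htr1b (1.14, adjusted p = 0.0239), Chrna6 (0.85, adjusted p = 0.0257), Cck (2.19, adjusted p = 0.0473) and Zfhx4, a zinc finger homeodomain factor (1.09, adjusted p = 0.00537). Those added on the lower side included Nek7 (-1.89, adjusted p = 0.00276), Zic5 (-1.59, adjusted p = 0.0257), Lhx2 (-1.26, adjusted p = 0.0244), Nfib, a nuclear factor I protein (-1.34, adjusted p = 0.0298), and Tnr, an extracellular matrix protein (-1.30, adjusted p = 0.0282). Only 4 residual degrees of freedom remained in this fit.

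Among the same 45 was Gt(ROSA)26Sor, the transcript of the Rosa26 locus that holds the tdTomato reporter. It had 7.24, 8.13 and 8.04 in red replicates 1 to 3, 6.71, 7.15 and 7.02 in green and 7.33, 7.86 and 7.86 in double-labelled replicates. The difference of red from green was 0.84 over 9 arrays (adjusted p = 0.582) and 1.13 without both narrow-range arrays (adjusted p = 0.0261). Both populations labelled for tdTomato were higher than green in every array. Since the sort read tdTomato from this locus, the difference is tied to the sort and, like that of Gbx2, is no result.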
